A study of Rattus norvegicus with 12 samples.

Results

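The effect of a soy protein diet on mammary gene expression under estradiol was examined by comparing 3 arrays of rats fed soy protein isolate and given 17β-estradiol (E2) with 3 arrays of rats fed casein and given E2. These were 6 of the 12 arrays of the series, and all 14217 genes that the platform annotation named from at least 1 probe set were compared, the value of a gene being the mean over its probe sets that carry a single symbol. All groups were female Sprague-Dawley rats, an outbred strain, that started their diet on postnatal day 30, were ovariectomized on day 50, and from then had 14 days with E2 from an osmotic mini-pump or with vehicle, so that glands were taken on day 64. The groups were casein with E2 (E2-casein), soy with E2 (E2-soy), casein without E2 and soy without E2, with 3 arrays each, and the rats of every group lacked ovaries. The dose of E2 is not in the labels. Each array carried RNA from a pool of abdominal mammary glands; the number of animals in a pool is not given, and no label states whether pools of one group came from separate animals. The p-values therefore reflect the spread among these arrays, which could be technical. The titles of the E2-casein arrays name no protein, and casein was taken from the treatment protocol. For pools 2 and 3 of E2-casein, the SD of the difference over all probe sets was 0.163 and no probe set differed by more than 1 log2 unit, against an SD of 0.302 for the next most alike pair, so these arrays were counted as 1 sample by their mean, which left 2 E2-casein samples against 3 E2-soy samples.

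Estradiol acts in the mammary gland through nuclear estrogen receptors, of which ERα drives ductal growth and induces genes such as Pgr and Areg, and together with other hormones it brings epithelial cells toward milk protein synthesis. Soy protein isolate carries isoflavones, plant compounds that bind estrogen receptors weakly, so the diet is often studied for whether it adds to, or opposes, estrogen. The mammary gland of a virgin rat is mostly fat with a ductal tree, vessels, immune cells and, at its abdominal site, lymph nodes, and its cells carry the circadian clock that most tissues have.

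The deposited values were centred per probe set on the median of the 12 arrays, so only differences from that median are known and the tissue could not be checked by the level of its markers. One label field names the RNA as hepatic while the source names mammary gland. The mean of 24 measured liver genes lay between -0.33 and 0.19 on the 6 E2 arrays, in log2 units from the median. It was 4.84 on casein pool 3 without E2, and between -0.08 and 0.25 on the other arrays without E2. Casein pool 3 enters the shared estimate of the spread and the comparisons that use the groups without E2. Bacterial spike-in controls divided the arrays into a higher and a lower set by the sign of their mean value. All casein arrays without E2 were in the higher set, and each other group had arrays in both. Pool 1 of E2-casein and pool 2 of E2-soy were in the higher set and the other 4 E2 arrays in the lower one. Because the values were centred over the 12 arrays, their sign would be likely to divide the arrays in any case. The label sources do not say what this split is, and it is used below as a split of unknown origin. Under E2 the higher set compares a single array of each diet. A gene whose groups do not overlap has the same sign in both sets. Lymphocyte genes also varied within groups: the mean of 10 B cell genes was -0.81, 0.71 and 0.67 in E2-casein pools 1 to 3 and 0.81, -1.28 and 0.68 in E2-soy pools 1 to 3. Over the 12 arrays this mean ran from -1.31 to -0.81 in the higher spike-in set and from 0.67 to 2.48 in the lower one. Values within the spike-in sets therefore also divide the arrays by lymphocyte gene level, and the split and that level cannot be told apart. The median standard error (SE) of a gene's difference was 0.145 log2 units and the median half-width of its 95% confidence interval (CI) was 0.326, so differences well below that size could not be seen for most genes.

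Under E2, Ppif was the single gene that differed between the diets after adjustment. Ppif encodes cyclophilin D, the mitochondrial matrix protein that promotes opening of the permeability transition pore. Its log2 values were 1.47, 1.09 and 1.17 in E2-casein pools 1 to 3 and 0.05, 0.20 and -0.05 in E2-soy pools 1 to 3. All E2-casein arrays were above all E2-soy arrays, and the 6 arrays without E2, at -0.15 to 0.07, lay beside the E2-soy arrays. Ppif fell by 1.23 ± 0.12 (SE) on the log2 scale with soy, with a 95% CI of -1.51 to -0.95 (limma with Benjamini-Hochberg adjustment over 14217 genes, adjusted p = 0.0324, n = 2 E2-casein and 3 E2-soy), which is 2.35-fold lower if the deposited values are log2. Ppif was 1 of 14217 genes at an adjusted p under 0.05, or 0.00703%. The difference was -1.27 within the higher and -1.13 within the lower spike-in set. In the fit of soy against casein without E2, the Ppif difference was 0.07 ± 0.11, and the interaction of diet with E2 was -1.30 ± 0.17 (limma with Benjamini-Hochberg adjustment, adjusted p = 0.141), so a difference between the diet effects with and without E2 did not pass the test.

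The Ppif call depended on single libraries. With limma and Benjamini-Hochberg adjustment, its adjusted p was 0.121, 0.0508 and 0.0718 without casein pool 1, 2 or 3. It was 0.103 and 0.102 without soy pool 2 or 3, and 0.0538 without E2-casein pool 3. It was 0.0878 and 0.0717 without E2-soy pool 1 or 3. Leaving out E2-casein pool 1 leaves 1 E2-casein sample, the mean of pools 2 and 3, and the Ppif difference was then -1.06. Counts and p-values given below without that pool rest on this single sample. Dependence on the pool's values and the loss of a sample cannot be told apart there. The call stood without E2-casein pool 2, soy pool 1 or E2-soy pool 2, and over all 12 omissions the difference stayed between -1.30 and -1.06. With only the 2 E2 groups in the fit, the adjusted p of Ppif was 0.309, and the single called gene was Clec3b, which encodes the plasminogen-binding protein tetranectin (difference -3.46, adjusted p = 0.00632).

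At an unadjusted p under 0.05, 725 genes (5.10%) differed between the diets under E2, 321 (2.26%) higher and 404 (2.84%) lower with soy. Without E2-casein pool 1 the count was 416 (2.93%). With E2-casein pools 2 and 3 averaged, the samples of the diet groups did not overlap for 3307 genes (23.3%), 1490 (10.5%) higher and 1817 (12.8%) lower. Differences beyond 1 log2 unit were found in 34 genes higher and 40 lower. Genes named below other than Ppif did not pass adjustment in this comparison, and their values are given as measured differences.

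**Figure D1:**
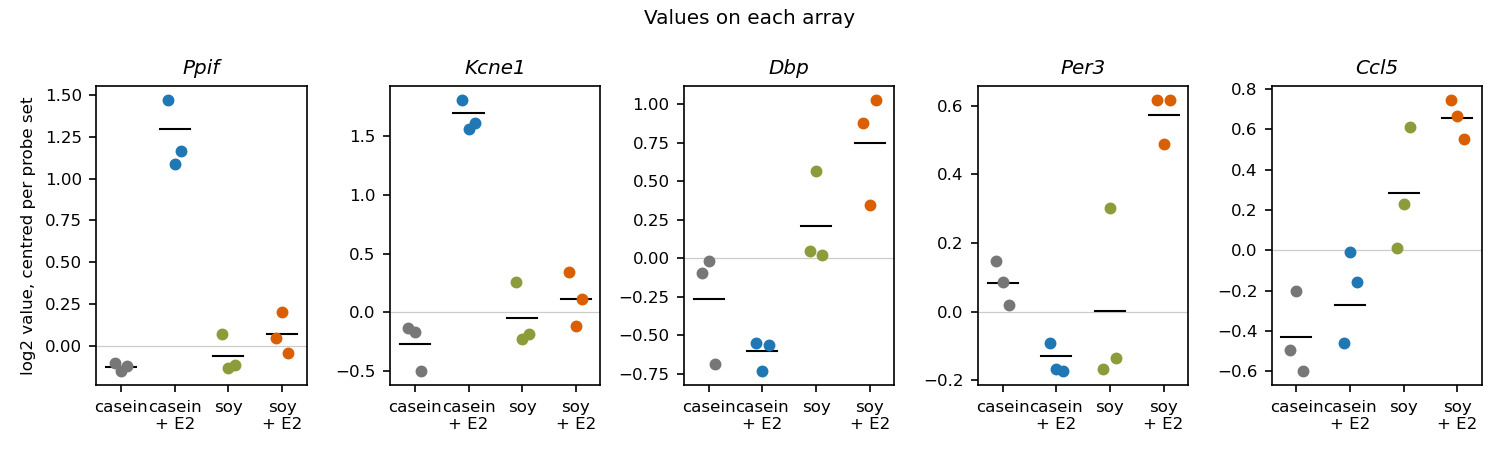
Log2 values, centred per probe set, of Ppif, Kcne1, Dbp, Per3 and Ccl5 on the 12 arrays by group, with each point 1 array (pools 1 to 3 from left to right in each group), the line the group mean after averaging E2-casein pools 2 and 3, and a scale of its own for each gene. Ppif and Kcne1 were high in E2-casein alone, whereas Dbp, Per3 and Ccl5 were higher in E2-soy than in E2-casein on every array.

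Kcne1, a regulatory subunit of voltage-gated potassium channels, had the second smallest p. Its log2 values were 1.81, 1.56 and 1.61 in E2-casein pools 1 to 3 and 0.34, -0.11 and 0.11 in E2-soy pools 1 to 3. The groups did not overlap, and the arrays without E2 ran from -0.50 to 0.26. The Kcne1 difference with soy was -1.58 ± 0.19 (limma with Benjamini-Hochberg adjustment, adjusted p = 0.076), with -1.92 and -1.36 in the higher and lower spike-in sets. With 1 array left out and 2 E2-casein samples kept, its adjusted p by limma ranged from 0.0374 without soy pool 1 to 0.184 without casein pool 1. Without E2-casein pool 1 the Kcne1 difference was -1.47. Of 20 measured cyclophilin and permeability-pore genes Ppif alone was at an unadjusted p under 0.05, and of 20 potassium channel genes 1 was higher and 3 were lower at that level (2.26% and 2.84% of all genes), with Kcne4 at 0.36 and Kcnk5 at -0.75. Without E2-casein pool 1 or E2-soy pool 3, 1 potassium channel gene was lower.

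The genes with the smallest p that were lower with soy were, besides Ppif and Kcne1, Adamts19, Folr1, Tmem44, Fibin, Lpo, Zcchc10, Prdx4 and Abca1. Folr1 encodes a folate receptor that is abundant in milk, and its log2 values were 1.32, 1.30 and 1.44 in E2-casein against 0.53, 0.29 and 0.02 in E2-soy. Lpo encodes lactoperoxidase, an antibacterial enzyme of milk, and its values were 3.32, 3.64 and 4.05 against 1.69, 1.97 and 0.60. Prdx4 encodes a peroxiredoxin of the endoplasmic reticulum, and its values were 1.29, 1.02 and 1.06 against 0.31, 0.22 and -0.04. None of these 3 genes overlapped between the groups, and in each the E2-soy arrays sat between the E2-casein arrays and most arrays without E2. The differences with soy were -1.06 ± 0.16 for Folr1, -2.16 ± 0.34 for Lpo and -1.0 ± 0.16 for Prdx4, with adjusted p between 0.191 and 0.198 by limma with Benjamini-Hochberg adjustment. The difference of Lpo was -1.35 in the higher and -2.70 in the lower spike-in set. Adamts19, a secreted metalloprotease, differed by -1.29 ± 0.17, the membrane protein gene Tmem44 by -1.09 ± 0.17 and the secreted-protein gene Fibin by -0.97 ± 0.15.

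These genes were set beside their response to E2 in each diet; the E2 contrasts share the E2-casein or the E2-soy arrays with the diet contrast, so they are no separate evidence. Of all genes, 346 (2.43%) changed with E2 in casein-fed rats and 31 (0.218%) in soy-fed rats (limma with Benjamini-Hochberg adjustment, adjusted p under 0.05). These counts include E2-soy pool 3, whose values over all probe sets had an SD of 0.179, against 0.322 and 0.309 in E2-soy pools 1 and 2. The SD of its difference was 0.316 from soy pool 2 without E2, and 0.331 and 0.352 from E2-soy pools 1 and 2. The part of this array in these counts was not tested, while some diet differences are given with it left out. Ppif was raised by 1.43 with E2 in casein-fed rats (adjusted p = 0.00293 by limma), and its E2 difference in soy-fed rats was 0.13. Kcne1 was raised by 1.97 in casein-fed rats, with 0.16 in soy-fed rats. Folr1 was raised by 1.68 with casein (0.38 with soy), Fibin by 1.53 (0.46), Adamts19 by 1.36 (0.08) and Prdx4 by 1.39 (0.34), and all were past the threshold with casein alone. Lpo was raised by 4.34 in casein-fed and by 2.29 in soy-fed rats, past the threshold in both. Zcchc10, a zinc-finger gene, was raised by 1.52 with casein (adjusted p = 0.00208 by limma) and differed by 0.26 with soy. Its diet difference was -0.74 ± 0.12 with E2 and 0.52 ± 0.11 without E2, and the interaction was -1.26 (adjusted p = 0.141 by limma). Passing with casein and missing with soy is not a test of the difference, and the interaction passed adjustment for none of the 14217 genes (929 at an unadjusted p under 0.05, 6.53%).

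**Figure D2:**
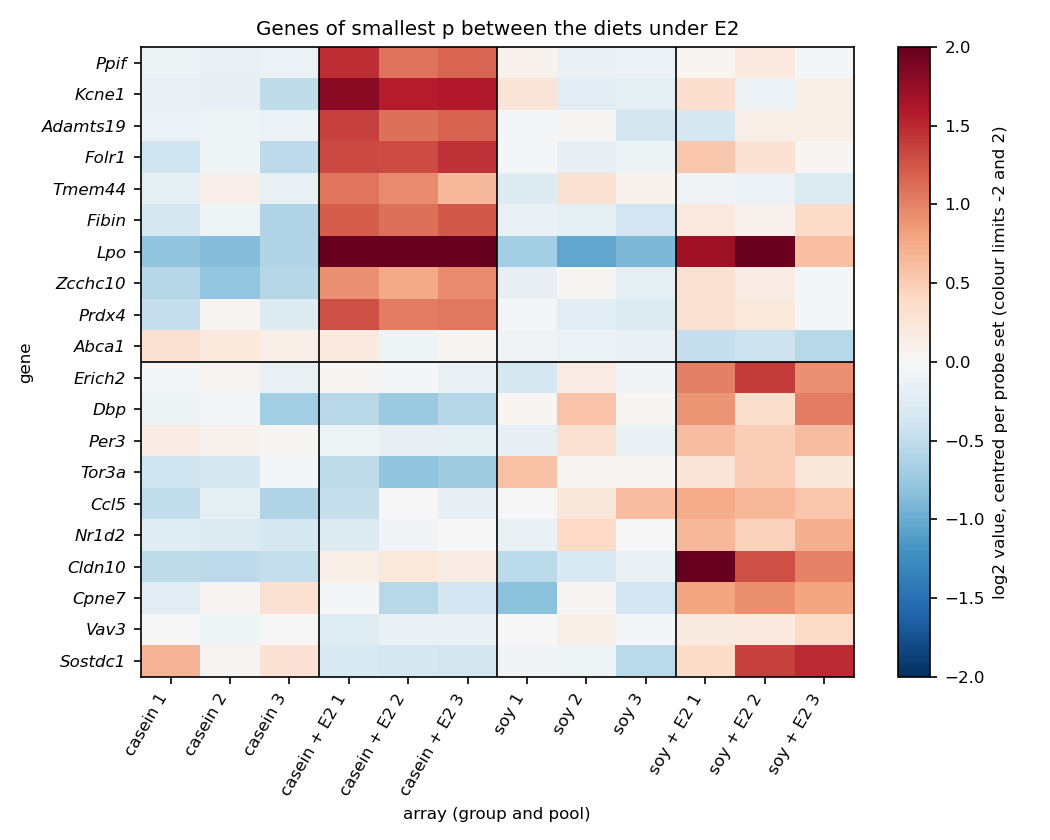
Heat map of log2 values, centred per probe set, of the 10 genes of smallest p lower with soy (upper block) and the 10 higher with soy (lower block) under E2, in rows, on the 12 arrays by group and pool, in columns, with colours limited to -2 and 2. Most genes of the upper block are red on the E2-casein arrays alone, with Lpo (up to 4.05) beyond the colour limit, and every gene of the lower block is higher on each E2-soy array than on any E2-casein array.

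The genes with the smallest p that were higher with soy under E2 were Erich2, Dbp, Per3, Ccl5, Tor3a, Nr1d2, Cldn10, Cpne7, Vav3 and Sostdc1. Cldn10 encodes a tight-junction claudin that forms ion pores, and its log2 values were 0.14, 0.22 and 0.15 in E2-casein against 2.19, 1.28 and 0.99 in E2-soy. Sostdc1 encodes a secreted inhibitor of BMP and Wnt signalling, and its values were -0.30, -0.35 and -0.37 against 0.37, 1.36 and 1.5. Erich2, a gene of a glutamate-rich protein, had 0.02, -0.04 and -0.15 against 1.02, 1.41 and 0.91. The E2-casein arrays of each of these genes lay close together and the E2-soy arrays were spread more widely above them. The differences were 1.33 ± 0.28 for Cldn10, 1.41 ± 0.32 for Sostdc1 and 1.15 ± 0.18 for Erich2, with adjusted p of 0.413, 0.497 and 0.191 by limma with Benjamini-Hochberg adjustment. With soy, E2 raised Cldn10 by 1.82 (adjusted p = 0.0311) and Erich2 by 1.19 (adjusted p = 0.0289), by limma over the same E2-soy arrays. With casein the E2 difference was 0.66 for Cldn10 (adjusted p = 0.229 by limma) and 0.00 for Erich2. Cpne7, a copine, differed by 1.09 ± 0.24, and Tor3a, a torsin ATPase of the endoplasmic reticulum, by 0.96 ± 0.19.

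The molecular clock is a loop in which BMAL1 and CLOCK bind E-box sequences and drive the Per, Cry and Nr1d genes, whose products then hold BMAL1 and CLOCK in check; Dbp and Tef are output factors driven by the same E-boxes. The hour at which glands were taken is not in the labels, so a difference in the hour between groups and a difference in the clock cannot be told apart. The start-site windows of Nr1d1 and Tef are printed because they hold the canonical E-box CACGTG, in capitals, and belong to clock genes that were at p under 0.05 here. Both are RefSeq sequences on build GRCr8, from 250 bases before to 50 bases after an annotated start site; Nr1d1 is on the minus strand at chr10:84229405-84229704, with the motif starting 191 bases before the start site, and Tef is on the plus strand at chr7:115206577-115206876, with the motif starting 198 bases before it.
Nr1d1: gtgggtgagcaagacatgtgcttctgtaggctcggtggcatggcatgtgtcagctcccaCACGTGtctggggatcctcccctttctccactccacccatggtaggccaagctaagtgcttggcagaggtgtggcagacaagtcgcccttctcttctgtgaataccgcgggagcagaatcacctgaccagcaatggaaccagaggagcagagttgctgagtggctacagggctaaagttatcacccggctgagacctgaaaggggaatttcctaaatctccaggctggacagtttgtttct
Tef: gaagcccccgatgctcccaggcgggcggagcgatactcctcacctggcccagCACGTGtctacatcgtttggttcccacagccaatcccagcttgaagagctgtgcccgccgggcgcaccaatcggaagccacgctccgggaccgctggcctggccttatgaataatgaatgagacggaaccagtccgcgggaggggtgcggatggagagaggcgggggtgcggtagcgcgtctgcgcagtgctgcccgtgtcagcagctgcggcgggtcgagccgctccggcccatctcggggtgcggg
CACGTG, which reads the same on both strands, was found in 2148 of 33469 windows (6.42%) of all genes. Of the 27 measured clock genes 22 had a window, and 5 held CACGTG: Nr1d1, Tef, Avp, Bhlhe40 and Bhlhe41. Avp, Bhlhe40 and Bhlhe41 were at p of 0.05 or more, with differences of -0.03, 0.46 and -1.09. The 6.42% is a share of windows and the 5 a count of genes, so they are not like measures. The D-box TTATGTAA, searched on both strands, was in 0.893% of all windows and in 1 clock gene, Per2, and TTACGTAA was in 0.12% and in no clock gene. A match describes letters in the window and not a bound site.

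Of the 27 measured clock genes, 16 in the core loop and 11 in its output, 9 were at an unadjusted p under 0.05 (33.3%, against 5.10% of all genes), 7 higher and 2 lower with soy under E2, and the samples of the diets, with E2-casein pools 2 and 3 averaged, did not overlap for 15 (55.6%, against 23.3%). None passed adjustment over all genes, and the same list held 3 genes at p under 0.05 for soy against casein without E2 (10.4% of all genes). The clock list holds the markers Dbp and Per3 and was chosen with earlier results of these data known. Genes of 1 loop are also not independent, so these shares are a description and not a test. Dbp was -0.55, -0.74 and -0.57 in E2-casein and 0.88, 0.34 and 1.03 in E2-soy. Nr1d1, the repressor REV-ERBα, was -0.14, 0.08 and -0.18 against 1.75, 1.13 and 2.13. Nr1d2, its relative REV-ERBβ, was -0.26, -0.07 and 0.01 against 0.66, 0.45 and 0.73. In all 3 genes the 3 E2-soy arrays were above every E2-casein array, with pool 2 the lowest of the E2-soy arrays. The differences were 1.35 ± 0.26 for Dbp, 1.76 ± 0.43 for Nr1d1 and 0.76 ± 0.16 for Nr1d2, with adjusted p of 0.363, 0.527 and 0.406 by limma with Benjamini-Hochberg adjustment. Per3, a period gene, was -0.09, -0.17 and -0.17 against 0.62, 0.49 and 0.62, a difference of 0.70 ± 0.14 whose 2 probe sets gave 1.32 and 0.09. Tef and the repressor Cry2 were also higher, by 0.56 ± 0.14 and 0.40 ± 0.13, as was Tsc22d3, a glucocorticoid-induced gene, by 0.42 ± 0.17.

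Bmal1 and Cry1 lay the other way. Bmal1, the activator, was 0.01, 0.07 and 0.05 in E2-casein and -0.68, -0.50 and -0.21 in E2-soy. Cry1, a repressor whose own gene is held down by REV-ERB proteins, was -0.25, 0.01 and -0.20 against -0.97, -0.79 and -0.60. Every E2-soy array of Bmal1 and Cry1 was below every E2-casein array, and the differences were -0.50 ± 0.16 and -0.61 ± 0.16. Of the clock genes at p of 0.05 or more, Npas2, a partner of BMAL1 like CLOCK, differed by -0.51 ± 0.27 and Bhlhe41, an E-box repressor, by -1.09 ± 0.49. Per1, Per2 and Clock differed by 0.21 ± 0.15, 0.14 ± 0.14 and -0.04 ± 0.11, with Per2 and Clock holding probe sets of unlike sign. All 18 clock genes at p of 0.05 or more had differences between -1.09 and 0.46. Within the spike-in sets Dbp differed by 0.90 in the higher and 1.60 in the lower set, and Per3 by 0.58 and 0.79. Without E2, Nr1d1 and Nr1d2 differed by 0.95 and 0.37 with soy (unadjusted p of 0.0353 and 0.0286 by limma) and Dbp by 0.48 ± 0.23, while Per3 differed by -0.08. Nr1d1 without E2 was uneven, at 1.0, 1.37 and -0.30 in soy pools 1 to 3 against -0.08, -0.32 and -0.36 in casein.

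**Figure D3:**
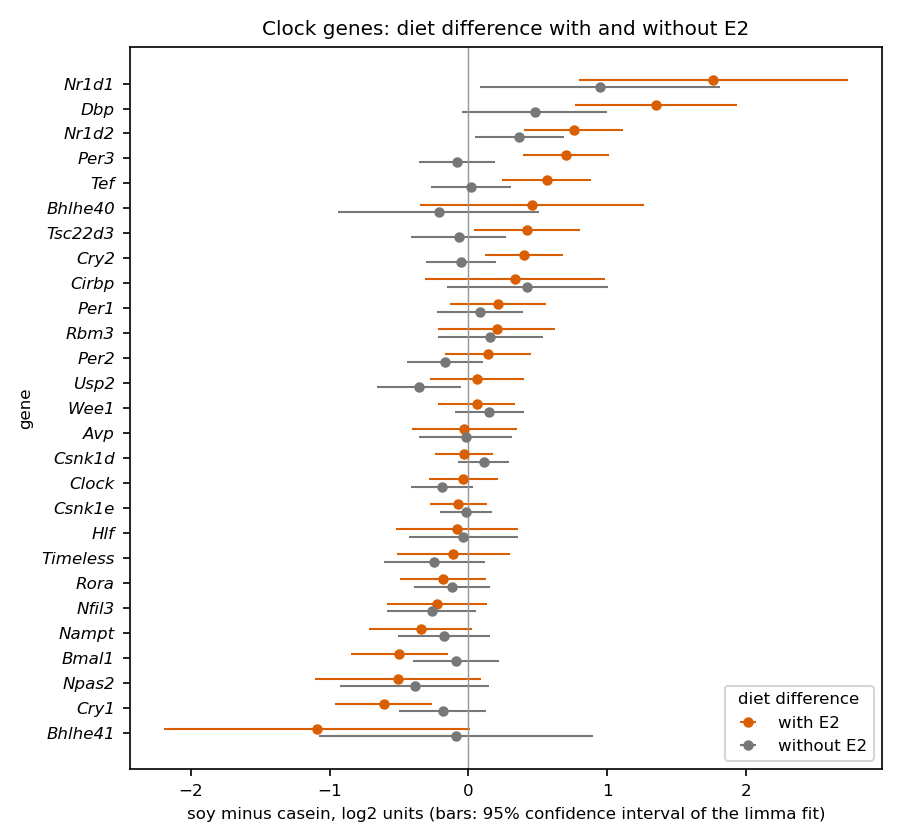
Difference with soy in log2 units, with 95% confidence intervals from limma, for the 27 measured clock genes under E2 and without E2. Under E2, 7 genes were higher and 2 were lower at an unadjusted p under 0.05, with Nr1d1 at 1.76 and Dbp at 1.35 the highest and Cry1 at -0.61 and Bmal1 at -0.50 the lower ones at that level.

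Ccl5, a chemokine made by T and NK cells and by interferon-stimulated tissue, was higher with soy under E2. Its log2 values were -0.46, -0.01 and -0.16 in E2-casein and 0.75, 0.67 and 0.55 in E2-soy. The groups did not overlap, and the difference was 0.93 ± 0.19 (limma with Benjamini-Hochberg adjustment, adjusted p = 0.397), with 1.13 and 0.73 in the higher and lower spike-in sets. Without E2 the Ccl5 difference was of like size, 0.71 ± 0.17 (unadjusted p = 0.00205 by limma), and the interaction was 0.21 ± 0.26. The median difference of the T and NK cell list, treated below, was 1.16 with soy without E2. Of 39 measured chemokine genes 5 were higher and 1 lower at p under 0.05 (2.26% and 2.84% of all genes), among them the interferon-induced Cxcl9 at 1.07 ± 0.26 and Ccl4 at 0.63 ± 0.19. The 5 higher genes became 2 when E2-casein pool 1 was left out, 3 when E2-soy pool 1 or 3 was left out, and 8 when E2-soy pool 2 was left out or arrays were quantile-normalized.

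Of 25 interferon-response genes, 5 were higher at p under 0.05 (2.26% of all genes) and 22 had a difference above 0, with a median of 0.22 against -0.0043 over all genes, 0.31 and 0.23 in the higher and lower spike-in sets and 0.21 without E2. The 5 became 1 when E2-casein pool 1 or E2-soy pool 3 was left out, and 3 when E2-soy pool 2 was. Gbp2, a guanylate-binding protein, and Psmb8, an immunoproteasome subunit, each differed by 0.55, and Irf9, a subunit of the interferon-activated factor ISGF3, by 0.25. Of 27 T and NK cell genes 23 were above 0 with a median of 0.51, but 2 were higher at p under 0.05 (2.26% of all genes). They were Nkg7 at 0.52 and Klrd1 at 1.54 ± 0.64, a granule protein and an NK receptor chain. The mean of the T and NK list was -0.55, 0.40 and 0.38 in E2-casein pools 1 to 3 and 1.02, -0.15 and 0.43 in E2-soy pools 1 to 3, so the groups overlapped and pool 1 of E2-casein was the lowest. Without that pool the list's median was 0.02 and no gene of the list was at p under 0.05. Without E2-soy pool 1 the median was 0.15 with 1 gene at that level, and it was 0.84 without E2-soy pool 2 and 0.29 when the fit held a term for the spike-in split. The B cell list, which moves with these genes on the same pools, had no gene at p under 0.05 and a median of 0.11, which ran from -0.48 without E2-casein pool 1 to 0.86 without E2-soy pool 2. Without E2 the T and NK list had 11 genes higher at p under 0.05 (7.21% of all genes) and the B cell list had 4. The B cell median without E2 was 1.79. The part of both lists in the chemokine and interferon values, with or without E2, was not tested. In such bulk samples fewer cells of a type and less RNA per cell cannot be told apart.

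Genes of milk synthesis were lower with soy under E2 in 16 of 18 cases by their sign. Of the 18, 7 were lower and none higher at p under 0.05, where 2.84% of all genes were lower, and the list's median difference was -0.51. Besides Folr1 and Lpo they included Cel, the bile-salt-activated lipase of milk, at 1.24, 0.78 and 0.58 in E2-casein against 0.52, 0.62 and -0.24 in E2-soy, where single arrays of the groups overlapped. The mean of the list was 1.33, 1.45 and 1.54 against 1.04, 1.10 and 0.24, with pool 3 of E2-soy far below the other 2. With that pool left out 2 genes were at p under 0.05 and the median was -0.23. With E2-casein pool 1 left out again 2 genes were at that level, and with casein pool 1 or soy pool 2 left out there were 4. The median was -0.19 in the higher and -0.71 in the lower spike-in set. The milk proteins themselves were not lower by the test. Wap, whey acidic protein, was 2.54, 2.89 and 3.06 against 3.27, 3.09 and 1.22, so that 2 of the 3 E2-soy arrays were above all E2-casein arrays. Its difference was -0.23 ± 0.93 (95% CI -2.31 to 1.85), β-casein Csn2 differed by -0.01 ± 1.32 (95% CI -2.96 to 2.95) and κ-casein Csn3 by -0.38 ± 0.32 (95% CI -1.09 to 0.33). The intervals of Wap and Csn2 are too wide to tell any but very large differences.

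Direct estrogen targets did not pass the test in either direction. Pgr, the progesterone receptor, was 1.78, 2.22 and 2.22 in E2-casein and 2.21, 2.24 and 0.82 in E2-soy, a difference of -0.24 ± 0.39 (95% CI -1.10 to 0.63). Areg, the EGF receptor ligand amphiregulin, was 1.01, 1.72 and 1.65 against 2.52, 2.54 and 1.01, a difference of 0.68 ± 0.59 (95% CI -0.66 to 2.01). For both genes pool 3 was the lowest E2-soy array and pools 1 and 2 were close to or above E2-casein. Greb1, a cofactor of ERα, differed by -0.48 ± 0.21 (95% CI -0.96 to 0.00), with probe sets at -0.17 and -0.79. The receptors Esr1 and Esr2 differed by 0.03 ± 0.16 (95% CI -0.33 to 0.39) and 0.05 ± 0.11 (95% CI -0.20 to 0.29). Of 26 estrogen-response genes 3 were lower and none higher at p under 0.05 (2.84% and 2.26% of all genes), with a median of -0.05. They were led by Igfbp5, an IGF-binding protein, at -0.72 ± 0.16 with all 5 probe sets below 0, and Ramp3, a receptor-activity-modifying protein. Ramp3 was 0.93, 0.77 and 0.71 against -0.19, 0.37 and 0.30, a difference of -0.67 ± 0.18 with E2 and 0.52 without E2. Of 34 proliferation genes 3 were lower at that level (2.84% of all genes), E2f1 at -0.38, Aurka at -0.52 and Mcm6 at -0.42, and Mki67 differed by 0.20 ± 0.27. The 3 became 1 when E2-casein pool 1 or E2-soy pool 3 was left out. Of 21 luminal genes 1 was lower (2.84% of all genes), the receptor kinase gene Kit at -0.40, with -0.84 and -0.06 in the higher and lower spike-in sets. By sign 16 luminal genes were below 0, with a median of -0.16, which was -0.06 without E2-soy pool 3. Of 19 basal genes 1 was lower (2.84% of all genes), the oxytocin receptor gene Oxtr at -1.0 ± 0.41.

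Genes of fatty acid synthesis were lower by sign in 21 of 23 cases, with a median of -0.41, and 3 were lower at p under 0.05 (2.84% of all genes). Mlxipl encodes ChREBP, the carbohydrate-responsive activator of lipogenic genes, and its log2 values were 0.02, 0.56 and 0.40 in E2-casein and -0.79, -0.52 and -0.59 in E2-soy. Fasn, fatty acid synthase, was -0.02, 0.18 and 0.23 against -0.57, -0.73 and -0.02. The Mlxipl groups did not overlap, and those of Fasn touched at pool 3 of E2-soy and pool 1 of E2-casein. Mlxipl differed by -0.88 ± 0.18 with E2 and by -0.82 ± 0.16 without E2 (limma with Benjamini-Hochberg adjustment, adjusted p of 0.397 and 0.373), with an interaction of -0.06 ± 0.24. Fasn differed by -0.53 and Srebf1, the sterol-regulatory factor, by -0.55 with E2. The 3 genes became 1 when casein pool 1, soy pool 3 or E2-soy pool 1 was left out and 7 when E2-casein pool 1 was. The median of the list was -0.64 without E2-casein pool 1, -0.23 without E2-soy pool 2 and -0.20 in the comparison without E2. Of 20 adipocyte genes none was at p under 0.05 and the median was -0.03, but it was 0.20 without E2-soy pool 1 and -0.34 without E2-casein pool 1. Without E2-soy pool 3 it was -0.43, with 2 genes lower at that level (4.68% of all genes in either direction without that pool). None of 14 brown-fat genes and none of 19 cholesterol-synthesis genes was at that level with all arrays. The median of the cholesterol list was 0.07, and -0.19 with 1 gene lower when E2-casein pool 1 was left out. Abca1, the cholesterol efflux pump, differed by -0.57 ± 0.10 as a gene, but its 4 probe sets ran from -1.87 to 0.30, so the direction rests on which probe set is read.

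Of 16 endothelial genes none passed adjustment, 15 had a difference above 0 with soy under E2 and 7 were higher at p under 0.05 with none lower, where 2.26% of all genes were higher, and the median was 0.47, with 0.60 and 0.42 in the higher and lower spike-in sets and -0.19 without E2. Erg, an endothelial ETS factor, was -0.51, -0.84 and -0.65 in E2-casein against -0.40, 0.02 and 0.16 in E2-soy. Cldn5, the claudin of endothelial junctions, was -1.15, -1.11 and -1.05 against -0.60, -0.64 and 0.27. Tie1, an endothelial receptor kinase, was -0.46, -0.85 and -0.81 against -0.38, 0.12 and 0.13. None of the 3 overlapped between the groups, and pool 1 of E2-soy came nearest to E2-casein for Erg and Tie1. Their differences were 0.55, 0.79 and 0.60, and the list's mean was -0.51, -0.55 and -0.52 in E2-casein against -0.43, 0.05 and 0.13 in E2-soy. The 7 became 14 when E2-soy pool 1 was left out, 3 and 4 when pool 2 or 3 of that group was, and 11 with quantile normalization. With E2, Erg fell by 1.07 and Cldn5 fell by 1.24 in casein-fed rats (adjusted p of 0.0234 and 0.0384 by limma), over the same E2-casein arrays. Erythroid genes, which mark blood in the gland, lay the other way: of 6, 2 were lower at p under 0.05 (2.84% of all genes). They were the heme-synthesis gene Alas2 at -1.19 ± 0.36 and the globin gene Hbb at -1.17 ± 0.44. Of the erythroid genes 1 was at that level when E2-soy pool 2 was left out and none when E2-casein pool 1 was. The part of blood content in the endothelial values was not tested.

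**Figure D4:**
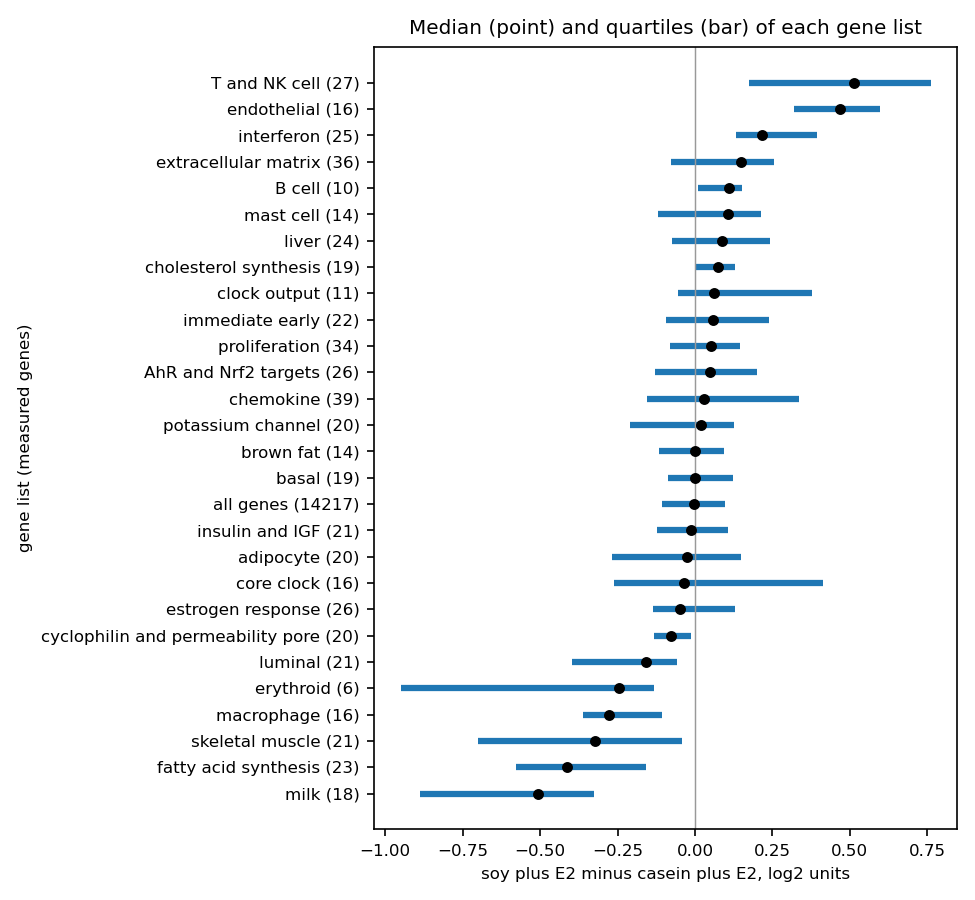
Median (point) and quartiles (bar) over the genes of each list of the difference E2-soy minus E2-casein, in log2 units, with the number of measured genes in brackets. Under E2 the T and NK cell list at 0.51 and the endothelial list at 0.47 have the highest medians, and the milk list at -0.51 and the fatty acid synthesis list at -0.41 the lowest.

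Targets of the aryl hydrocarbon receptor and of the oxidant-response factor Nrf2 divided the E2-soy pools. Aldh3a1, an aldehyde dehydrogenase induced through both factors, was 0.03, -0.33 and -0.26 in E2-casein and 3.05, -0.03 and 2.67 in E2-soy. Nqo1, a quinone reductase, was -0.74, -0.53 and -0.49 against 1.91, -0.46 and 1.72. Cyp1a1, the monooxygenase most used as a readout of the receptor, was -0.53, -0.93 and -0.87 against 2.73, -0.51 and 3.85. In all 3 genes pools 1 and 3 of E2-soy were high and pool 2 lay near E2-casein, and pool 2 is also the E2-soy array in the higher spike-in set. The difference was -0.06 in the higher and 3.15 in the lower spike-in set for Aldh3a1, and 0.03 and 4.19 for Cyp1a1. With all pools Aldh3a1 differed by 2.03 ± 0.73 (limma with Benjamini-Hochberg adjustment, adjusted p = 0.852), and without E2-soy pool 2 by 2.99 (adjusted p = 0.0173). Nqo1 differed by 1.68 ± 0.63 and Cyp1a1 by 2.74 ± 1.66 (95% CI -0.99 to 6.46). Cyp1a1 was as uneven in casein without E2, at 1.28, -1.60 and 4.84. Cyp1b1, a related monooxygenase, differed by 1.22 ± 0.75, and Hmox1, heme oxygenase, by 0.28 with E2 and 0.48 without E2. Of 26 genes in this list 4 were higher and 1 lower at p under 0.05 (2.26% and 2.84% of all genes). The 4 became 0 when E2-soy pool 1 was left out, 1 when E2-soy pool 3 or E2-casein pool 1 was, and 7 when E2-soy pool 2 was.

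**Figure D5:**
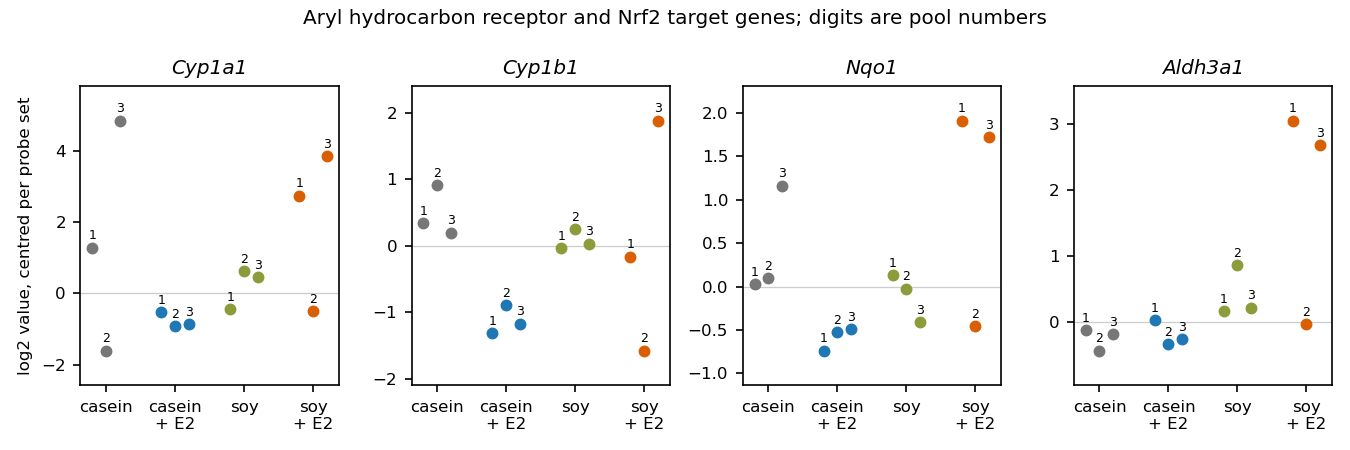
Log2 values, centred per probe set, of Cyp1a1, Cyp1b1, Nqo1 and Aldh3a1 on the 12 arrays by group, with each point 1 array, the digit its pool number and a scale of its own for each gene. E2-soy pools 1 and 3 stand above the E2-casein arrays for these genes and pool 2 lies near or below them.

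The other lists held few genes at p under 0.05. Of 36 extracellular matrix genes 2 were higher and 1 lower (2.26% and 2.84% of all genes), with the adhesion-modulating tenascin gene Tnc at 1.13, the collagen gene Col4a2 at 0.56 and the metalloprotease inhibitor gene Timp1 at -0.50. Of 22 immediate early genes 2 were higher (2.26% of all genes), Nr4a1 at 0.46 and Fosb at 0.57. With single arrays left out the higher count ran from 1 to 5 for extracellular matrix and from 0 to 3 for immediate early genes. Of 16 macrophage genes none was at that level and 1 was above 0, with a median of -0.28, which was -0.09 without E2-casein pool 1 and -0.17 without E2-soy pool 2. The macrophage median was -0.56 in the higher spike-in set, with 1 array of each diet, and 0.01 in the lower set. In the comparison without E2 the macrophage median was 0.54, with 9 genes higher at p under 0.05 (7.21% of all genes). Skeletal muscle genes, a tissue that can adhere to a dissected gland, had a median of -0.32 over 21 genes with none at p under 0.05, and of -0.53 without E2-casein pool 1. The insulin and IGF list had 1 of 21 lower (2.84% of all genes), Igfbp5, and Igf1 itself differed by 0.10 ± 0.42.

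Soy had 0 genes past adjustment without E2 and 1472 (10.4%) at an unadjusted p under 0.05, 1025 higher (7.21%) and 447 lower (3.14%), and without soy pool 1 there were 327 past adjustment. The diet differences with and without E2, which share no array, had a Pearson correlation of 0.138 and a Spearman correlation of 0.0606 across 14217 genes, which are not independent replicates. Of the 725 genes at p under 0.05 under E2, 371 (51.2%) had the same sign without E2, against 51.2% of all genes. At p under 0.05 at both E2 levels were 64 genes of like and 55 of opposite direction. Both contrasts of a gene use the same estimate of its spread, so passing in both is not independent. Ccl5 and Mlxipl were genes of like direction and Zcchc10 and Ramp3 of opposite direction.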

How the data were processed

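Total RNA of pooled mammary glands (8 µg per array) was measured on Affymetrix rat arrays, per the labels' protocols. The authors deposited 1 table of 31099 probe sets on 12 arrays; the submitters' processing notes name GCOS, the Affymetrix software, with no version. How signals were summarised and normalized, and the log base, is not given in the sources used here. Because no probe set spanned more than 9.85, the deposited values were taken to be log2, on which every fold change rests. The median of every probe set over the arrays was 0 to within rounding (at most 5e-07), so level and detection could not be used. Arrays carry no read depth, and their number limits the precision.

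The platform annotation named the probe sets: 20826 carried 1 gene, 436 several, 9780 were unnamed here and 57 were controls, and 20758 matched the GRCr8 gene table. A gene's value was the mean of its single-gene probe sets (4525 of 14217 genes had several). limma 3.58.1 in R 4.3.3 fitted 4 group means over 11 samples, E2-casein pools 2 and 3 being averaged, with 7 residual degrees of freedom, and Benjamini-Hochberg adjustment ran over all genes. All groups entered the fit to share 1 estimate of the spread. On simulated data for this comparison (14217 genes, 100 changed at each size, noise independent between genes), the fit recovered 79% of genes given a difference of 1 log2 unit and 91% given 2, with 14 false calls. The adjustment is stricter when fewer genes differ, so these shares do not give the power in the real data. The spike-in split is the sign of the mean of 18 bacterial probe sets.

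Genes named are the markers Ppif, Kcne1, Dbp, Per3 and Ccl5, called genes, the 10 genes of smallest p in each direction whose groups do not overlap, clock genes, up to 3 members of every other list at p under 0.05, and 16 genes chosen as estrogen, milk, proliferation and xenobiotic readouts; Clec3b and Saa3 were picked with their values in view. The rule, the gene lists and the comparison were chosen with earlier results of these data known. Some clock genes are given by range. Alternatives were quantile or median normalization, other gene summaries, other sample sets, a replicate block, a fold minimum, array weights, the spike-in split, a variance trend and each array left out; leaving out arrays for the list counts was added after seeing the data.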

Additional observations from a re-analysis of the deposited data

Results flagged for a closer look

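Probe sets without a single gene name were outside the gene comparison, and 3 of 10216 differed between E2-soy and E2-casein (limma with Benjamini-Hochberg adjustment over these probe sets). At an unadjusted p under 0.05 were 506 of them (4.95%). Probe set 1392392_at, unnamed here, fell by 2.22 ± 0.15 on the log2 scale (adjusted p = 0.000329 by limma). It lay between 0.93 and 1.29 on all casein arrays and between -1.38 and -0.93 on all soy arrays, fell by 2.17 ± 0.14 without E2 as well (adjusted p = 0.000138 by limma), and its interaction was -0.05 ± 0.20. Probe set 1393471_at, also unnamed here, was higher by 1.67 ± 0.13 with soy under E2 (adjusted p = 0.000408 by limma), at -1.12, -1.15 and -1.13 in E2-casein against 0.43, 0.61 and 0.58 in E2-soy. Its difference without E2 was 0.23 ± 0.11 (adjusted p = 0.568 by limma), and the interaction was 1.44 (adjusted p = 0.0547 by limma). Probe set 1370493_a_at, annotated to 4 genes, fell by 2.07 ± 0.26 (adjusted p = 0.0332 by limma), at 0.75, 0.03 and -0.02 in E2-casein against -1.64, -1.82 and -1.61 in E2-soy, and differed by -0.06 without E2.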

How the results depend on the processing

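The 1 gene called between the diets under E2 became 6 with quantile normalization (Ppif and Kcne1 among them), 0 with every probe set tested, 2 with the probe set of largest SD (Ppif and Abca1), 13 with E2-casein pools 2 and 3 as separate samples, 7 with array weights, 0 with a 1.5-fold minimum and 0 with a variance trend. Median centring, the spike-in split as a term and the E2 groups alone kept the count at 1, which with the E2 groups alone was Clec3b and otherwise Ppif. Leaving out 1 array gave 0 to 3 called genes, with 2 when soy pool 1 and 3 when E2-soy pool 2 was omitted. The 725 genes at an unadjusted p under 0.05 became 1091 with quantile normalization, 1198 with array weights and 416 when E2-casein pool 1 was omitted. The interaction went from 0 called genes to 4 with separate pools, 5 with array weights and 1, Ppif, with the spike-in split. For soy without E2, leaving out 1 array gave 0 to 327. Pool numbers did not pair the samples (correlations of deviations between same-numbered arrays of -0.42 to 0.46), and with the pool number as a replicate block 0 genes were called, with Ppif at -1.21. Some small differences turned sign. Wap was 0.0107 with quantile normalization. Csn2 was 0.11 with quantile normalization, 0.10 with the replicate block and 0.0369 with array weights. Igf1 was -0.0604 with the probe set of largest SD and -0.0746 with array weights. With 1 array left out, Wap ran from -0.60 to 0.42, Csn2 from -0.0876 to 0.12, Igf1 from -0.41 to 0.51, Pgr from -0.48 to 0.23, Bhlhe40 from -0.0155 to 0.75, Mki67 from -0.0168 to 0.38, Ccnd1 from -0.38 to 0.0146, Esr1 from -0.0427 to 0.12, Esr2 from -0.0311 to 0.14 and Clock from -0.0693 to 0.0097. The cause was not tested. Among single genes 22 values became called and 14 lost a call, and 18 turned sign.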

Other observations

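Clec3b, the gene of tetranectin, had the difference of largest size under E2 and was singled out after its values were seen. Its log2 values were 0.00, 0.00 and 0.04 in E2-casein and -3.57, -3.57 and -3.19 in E2-soy, a difference of -3.46 ± 0.90 (limma with Benjamini-Hochberg adjustment, adjusted p = 0.61). The E2-soy arrays were far below, but casein pool 2 without E2 was also low, at -3.24 beside -0.31 and 0.87 in casein pools 1 and 3. The difference without E2 was 1.78 ± 0.80, of opposite sign.

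Saa3, an acute-phase serum amyloid gene, was 0.45, 2.64 and 2.67 in E2-casein and 4.67, 4.56 and 1.62 in E2-soy, a difference of 2.06 ± 0.92 (limma with Benjamini-Hochberg adjustment, adjusted p = 0.982). Its groups overlapped, with pool 3 the lowest of the E2-soy arrays, as it was for Wap, Pgr and Areg.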
